A study of Arabidopsis thaliana with 27 samples.

Results

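Transcript levels of 5 glycosyltransferase genes, UGT85A2 (AT1G22360), UGT76E12 (AT3G46660), UGT84A3 (AT4G15490), IAGLU (AT4G15550) and AT4G27570, were followed in Arabidopsis thaliana leaves. They were chosen by name from the platform annotation, which names a gene for 181 probes and none for a further 395, and each of the 5 genes has 1 probe. The reference gene table describes UGT85A2, UGT76E12 and IAGLU as UDP-glucosyltransferases. It gives no enzyme name for UGT84A3 beyond its symbol and lists AT4G27570 by its locus code alone. Leaves of 4-week-old plants were infiltrated with hrcC or Psm bacteria and measured on 27 one-colour arrays. The strain hrcC is Pseudomonas syringae pv. tomato DC3000 without a working type III secretion system, the apparatus that delivers effector proteins into plant cells, and Psm is the strain that the labels also call Pseudomonas syringae ES4326. The wild type (Col-0), the cbp60g cbp60h double mutant, the cbp60g cbp60h pad4 triple mutant and pad4-1 each have 2 arrays at 9 h after hrcC, 1 array at 24 h after hrcC and 3 arrays at 24 h after Psm. The single mutant cbp60h has 3 arrays at 9 h after hrcC, and a single cbp60g mutant was not analysed here. The labels number 3 experiments, called sets here: the 9 h hrcC arrays are from sets 1 and 2, except that cbp60h also has one from set 3, the Psm arrays are from sets 1 to 3, and the 24 h hrcC arrays are from set 3. A sample is a pool, taken as 2 leaves from each plant in 3 pots. CBP60g and CBP60h (also called SARD1) are related transcription factors that drive salicylic acid synthesis, and PAD4 is a lipase-like protein of the same defence pathway. No named probe measures these genes, which leaves the genotypes unchecked here, and none of 14 leaf cell type markers is a named probe, so the tissue was not checked either. The title of the study asks how far CBP60g and CBP60h can replace each other in salicylic acid signaling.

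UDP-glycosyltransferases move a sugar, most often glucose, from a UDP-sugar onto a small molecule. In plants the acceptors include hormones such as salicylic acid and auxin, and phenylpropanoids such as sinapate, and the glucose form is usually a stored, transported or inactive form of the molecule. Many of the genes lie in tandem with close relatives. UGT84A1 and UGT84A4 lie within 5 genes of UGT84A3, UGT76E11 lies as near to UGT76E12, and 4 other UGT85A genes to UGT85A2. None of these neighbours has a named probe, and whether the probes also bind their transcripts was not tested. The probe sequences and the protein sequences were not used here.

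Values are the deposited log2 signals. The base of the logarithm is not stated, and folds below assume base 2. Differences were tested with limma over all 181 named genes. An adjusted p under 0.05, by the Benjamini-Hochberg method, was called, and p-values given with a gene are adjusted in this way. Array medians ran from 3.90 to 4.53. The levels of the 5 genes were first laid side by side by bacterial treatment, and each gene was compared only with itself.

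UGT76E12, a gene of the UGT76E subfamily, was high in all 12 Psm arrays and low in 14 of the 15 hrcC arrays. With Psm at 24 h it read 4.43, 4.03 and 4.04 in Col-0 (sets 1 to 3), 4.89, 4.52 and 4.60 in the double mutant, 4.19, 4.53 and 4.28 in the triple mutant and 4.24, 3.95 and 4.22 in pad4-1. At 9 h after hrcC it read 1.72 and 2.71 in Col-0, 2.73 and 2.78 in the double mutant, 2.57 and 2.44 in the triple mutant and 2.60 and 2.44 in pad4-1 (sets 1 and 2). At 24 h after hrcC, with 1 array each, the double mutant read 1.94, the triple mutant 1.69, pad4-1 1.83 and Col-0 2.32. The exception among the hrcC arrays was the set 3 array of cbp60h at 4.51, whereas the other cbp60h arrays read 3.02 and 2.92. In the order of its 13 group means the 4 Psm groups came first and overlapped their neighbours in that order, and cbp60h followed.

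UGT84A3 belongs to the subfamily that joins glucose to sinapate and related hydroxycinnamic acids as an ester. Its highest group mean was that of the triple mutant with Psm, at 4.96 ± 0.23 (SD, n = 3), which did not overlap the next group, pad4-1 with Psm, at 4.42 ± 0.20 (SD, n = 3). With Psm it read 3.53, 4.00 and 4.10 in Col-0, 3.86, 4.46 and 4.51 in the double mutant, 4.70, 5.04 and 5.14 in the triple mutant and 4.18, 4.52 and 4.55 in pad4-1 (sets 1 to 3). At 9 h after hrcC it read 3.15 and 4.01 in Col-0, 3.41 and 3.39 in the double mutant, 3.82 and 3.55 in the triple mutant, 3.71 and 3.66 in pad4-1, and 3.80, 3.74 and 4.09 in cbp60h. At 24 h after hrcC the double mutant read 3.23, the triple mutant 2.67, pad4-1 3.31 and Col-0 4.01. The triple mutant thus held the highest level of all groups with Psm and the lowest with hrcC at 24 h. From the second to the ninth group in the order of means, each group overlapped the next.

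The reference table names IAGLU as indole-3-acetate beta-D-glucosyltransferase, a name for an enzyme that joins glucose to the auxin indole-3-acetic acid. Its activity was not tested here. The gene was also higher with Psm. It read 3.49, 4.09 and 4.03 in Col-0 with Psm, 2.86, 4.11 and 3.61 in the double mutant, 3.29, 4.56 and 3.75 in the triple mutant and 4.03, 4.58 and 4.37 in pad4-1 (sets 1 to 3). In each of these genotypes set 1 was the lowest and set 2 the highest, and the 4 groups overlapped over the 3 sets. At 9 h after hrcC the 11 arrays lay between 2.58 and 3.64 with a median of 2.80, and at 24 h after hrcC the level was 2.54 in the double mutant, 2.38 in the triple mutant, 2.10 in pad4-1 and 2.78 in Col-0. The 11 arrays overlapped the Psm arrays, while the 4 arrays at 24 h after hrcC lay below all of them.

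UGT85A2 and AT4G27570 varied least. The range of the 13 group means was 0.85 for UGT85A2 and 0.75 for AT4G27570, ranked 152 and 160 of 181 named genes, against 2.98 for UGT76E12, 2.29 for UGT84A3 and 2.22 for IAGLU and a median of 1.59 over all named genes. UGT85A2 lay between 2.58 and 3.63 with Psm (median 3.06, n = 12), between 2.97 and 3.73 at 9 h after hrcC (median 3.41, n = 11) and between 3.23 and 3.63 at 24 h after hrcC (n = 4), and its lowest group mean was Col-0 with Psm, at 2.82 ± 0.22 (SD, n = 3). AT4G27570 lay between 1.19 and 2.29 with Psm (median 1.94, n = 12), between 1.96 and 2.45 at 9 h after hrcC (median 2.19, n = 11) and between 1.60 and 2.21 at 24 h after hrcC (n = 4). Most neighbours in the order of the group means overlapped for both genes. The probe of AT4G27570 was among the dimmest 8.85% of probes on every array, and the files give no signal over background, so whether it lay above background is unknown.

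**Figure D1:**
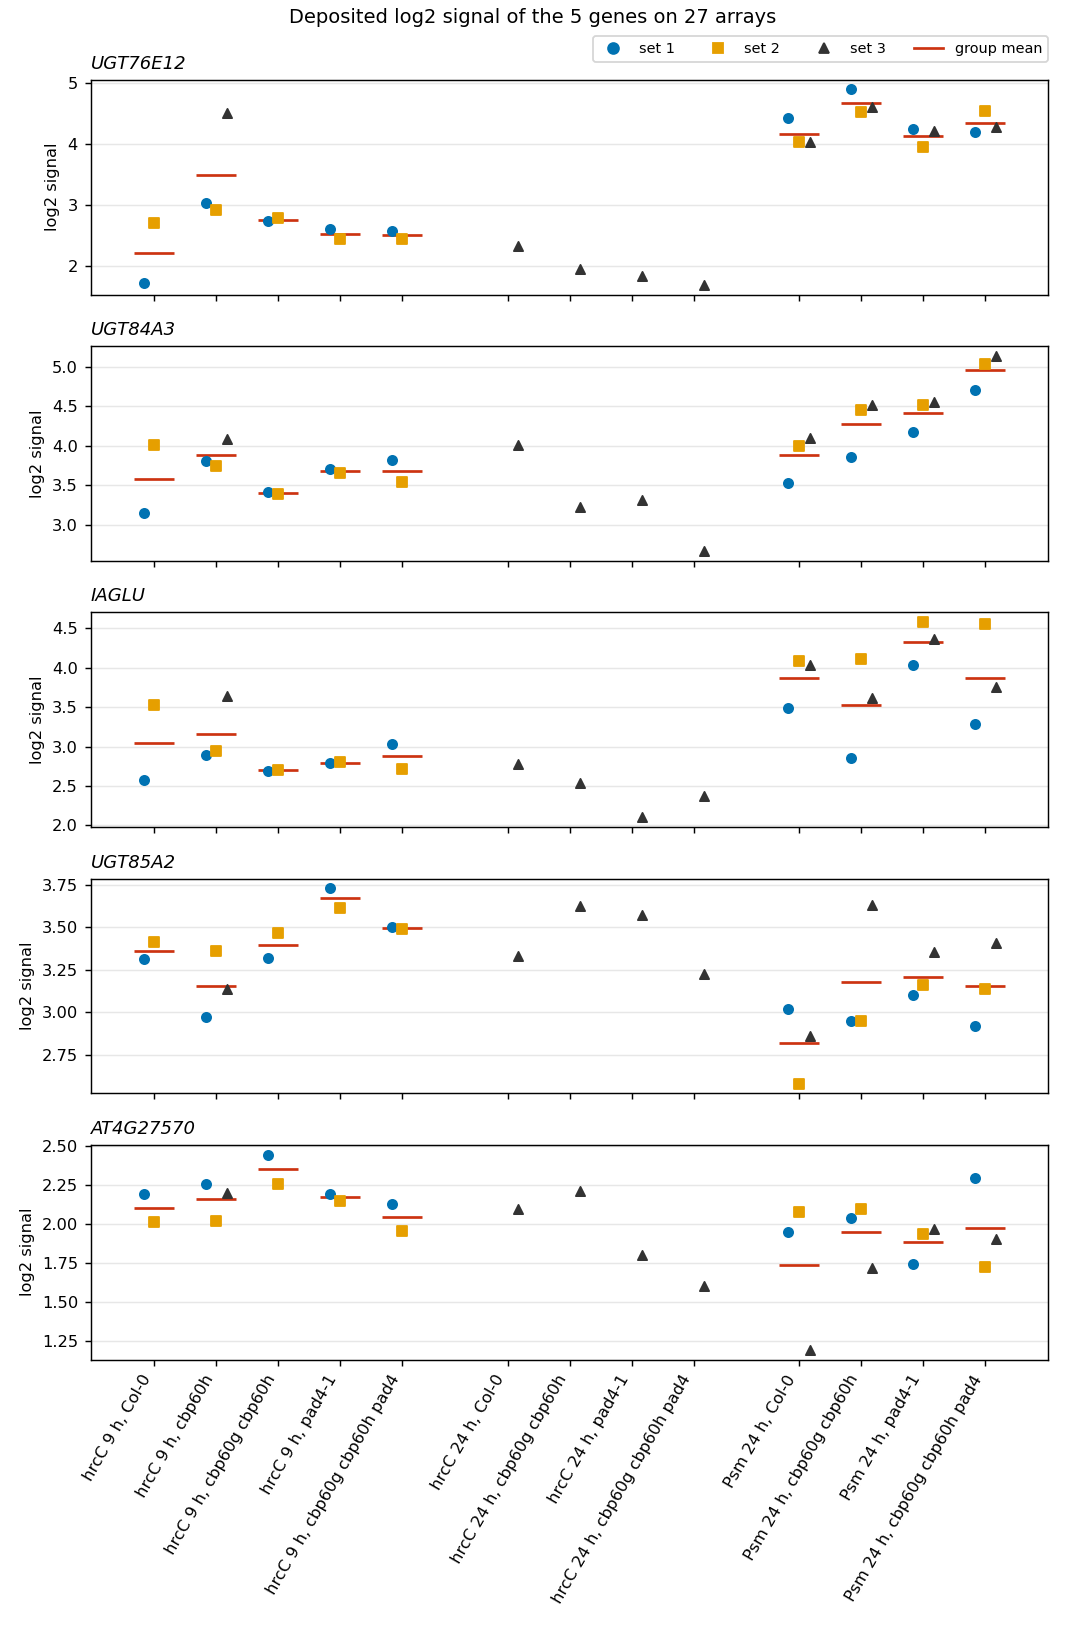
Deposited log2 signal (y axis, a separate scale per panel) of the 5 genes in the 13 groups (x axis). Each point is 1 array, its shape and colour give the set, and red lines are means of groups with 2 or 3 arrays. UGT76E12 lies between 3.95 and 4.89 with Psm and between 1.69 and 3.02 with hrcC, apart from the set 3 array of cbp60h at 4.51, and UGT84A3 is highest in the triple mutant with Psm and lowest in the triple mutant at 24 h after hrcC.

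The first comparison was that of Psm at 24 h with hrcC at 9 h within a genotype, in which strain and time change together. UGT76E12 rose in all 4 genotypes. It rose by 1.95 in Col-0 (SE 0.36, adjusted p = 0.000394), by 1.92 in the double mutant (SE 0.36, adjusted p = 0.000395), by 1.83 in the triple mutant (SE 0.36, adjusted p = 0.000512) and by 1.62 in pad4-1 (SE 0.36, adjusted p = 0.00197). The Col-0 set 1 array at 9 h after hrcC was the dimmest reading of the gene relative to its array, at percentile 0.17 of the probes, and whether it lay above background is unknown, so no fold is given for this gene. In leaf RNA, more cells of a type and more RNA per cell cannot be told apart. All 4 rises were called in 7 of 7 alternatives and without each array of the groups compared in turn. Without the Col-0 set 1 array at 9 h after hrcC the rise in Col-0 was 1.46.

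UGT84A3 rose in the 3 mutant genotypes. The rise was 1.28 in the triple mutant (SE 0.26, adjusted p = 0.000877), 0.88 in the double mutant (SE 0.26, adjusted p = 0.0110) and 0.73 in pad4-1 (SE 0.26, adjusted p = 0.0383). In Col-0 the difference was 0.30 (95% interval -0.25 to 0.85, adjusted p = 0.413). The Col-0 arrays at 9 h after hrcC read 3.15 and 4.01 in sets 1 and 2. Over all probes the SD of the difference between these arrays was 0.68. It was 0.50 in the double mutant, 0.46 in the triple mutant and 0.49 in pad4-1. The rises in the double mutant and pad4-1 lost their calls after quantile normalization, at 0.38 and 0.34, and after re-centring of each array on its median, at 0.49 and 0.37, whereas the rise in the triple mutant was called in 7 of 7 alternatives, at 0.78 to 1.28. Without the set 2 array of the double mutant at 9 h after hrcC its rise was 0.86 (adjusted p = 0.0641), and in pad4-1 4 of 5 left-out arrays ended the call, with values from 0.66 to 0.85 over all 5.

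IAGLU rose in pad4-1, by 1.53 (SE 0.38, adjusted p = 0.00528), a 2.89-fold change. In the other genotypes the differences were 0.82 in Col-0 (adjusted p = 0.102), 0.83 in the double mutant (adjusted p = 0.0891) and 0.99 in the triple mutant (adjusted p = 0.0646). The Col-0 arrays at 9 h after hrcC read 2.58 and 3.52 in sets 1 and 2. With the set as a block the triple mutant was called as well, at 0.92 (adjusted p = 0.0377), and without their own set 1 Psm array so were the double mutant, at 1.16 (adjusted p = 0.0226), and the triple mutant, at 1.28 (adjusted p = 0.0240).

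UGT85A2 had lower values with Psm at 24 h than with hrcC at 9 h. Its differences were -0.54 in Col-0 (upper 95% bound -0.08, adjusted p = 0.0644), -0.22 in the double mutant (adjusted p = 0.461), -0.34 in the triple mutant (adjusted p = 0.286) and -0.47 in pad4-1 (adjusted p = 0.110), none of them called. After quantile normalization it was called lower in Col-0 (-0.79), the double mutant (-0.66) and pad4-1 (-0.88), and after median re-centring in these and in the triple mutant (-0.75, -0.61, -0.83 and -0.61). With the set as a block it was called in Col-0 (-0.63, adjusted p = 0.0196) and pad4-1 (-0.56, adjusted p = 0.0345). AT4G27570 differed by -0.36, -0.40, -0.07 and -0.29 in Col-0, double mutant, triple mutant and pad4-1, with no call, but was called lower in the double mutant after quantile normalization (-0.48) and median re-centring (-0.79). The median difference of all named genes was 0.14 to 0.24 as deposited. It was -0.06 to -0.15 after quantile normalization and -0.07 to -0.19 after median re-centring. Whether these genes were called lower thus depended on the scaling, and for UGT85A2 also on the set block. Over all named genes in Col-0, 41 were called higher and 19 lower as deposited, and 28 higher and 40 lower after quantile normalization. The double mutant went from 58 and 18 to 35 and 49, the triple mutant from 30 and 18 to 23 and 27, and pad4-1 from 38 and 21 to 24 and 41.

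Counted together, 1 of the 5 genes was called in Col-0, where 33.1% of the 181 named genes were, 2 in the double mutant (background 42%), 2 in the triple mutant (26.5%) and 3 in pad4-1 (32.6%). All of these calls were rises. With 5 genes, these counts say nothing particular about the group. The mutants' effects were also compared between Psm at 24 h and hrcC at 9 h. None of the 5 genes was called in that comparison for the double mutant (background 0%), for pad4-1 (0.552%) or for the triple mutant (3.31%), by limma. At an unadjusted p under 0.05 there were 0, 0 and 1 of the 5 genes. The 1 was UGT84A3 in the triple mutant, with a difference between effects of 0.98 (95% interval 0.20 to 1.75, adjusted p = 0.172). Without the Col-0 set 1 array at 9 h after hrcC the difference was 1.41. That value rests on a single Col-0 array at 9 h, so the spread of that group was not measured.

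Set 3 allowed the strains to be compared at one time, 24 h, in one experiment, with the 4 genotypes as blocks. Each genotype has 1 array per strain there. The SE and p-values of this fit therefore measure how the strain difference varied among genotypes, not among replicates. UGT76E12 was 2.34 higher with Psm than with hrcC (SE 0.27, adjusted p = 0.000235). Its differences were 2.66 in the double mutant, 2.59 in the triple mutant, 2.38 in pad4-1 and 1.72 in Col-0. The probe was among the dimmest 8.85% on each of the 4 hrcC arrays, where it may have lain at background, so the size of its difference is uncertain. IAGLU was 1.49 higher (SE 0.28, adjusted p = 0.00362), with 1.08, 1.37, 2.26 and 1.25 in the same order of genotypes. Both genes were higher with Psm in 4 of 4 genotypes, and both calls remained without each of the 8 arrays in turn.

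UGT84A3 was 1.27 higher with Psm in set 3 (SE 0.37, adjusted p = 0.0247), with unequal differences among the genotypes. They were 1.29 in the double mutant, 2.47 in the triple mutant, 1.24 in pad4-1 and 0.09 in Col-0. Without either triple mutant array the average was 0.87 (adjusted p = 0.0759), and it was 0.83 (adjusted p = 0.0979) after quantile normalization and 0.94 (adjusted p = 0.0868) after median re-centring. UGT85A2 differed by -0.13 (95% interval -0.70 to 0.44, adjusted p = 0.746) and AT4G27570 by -0.23 (95% interval -0.89 to 0.42, adjusted p = 0.607). For UGT85A2 the differences were 0.002 in the double mutant, 0.18 in the triple mutant, -0.22 in pad4-1 and -0.47 in Col-0. In all, 3 of the 5 genes were called, all higher, where 30.4% of the named genes were called. Over all named genes 39 were called higher and 16 lower, and 25 higher and 28 lower after quantile normalization.

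The time after hrcC was compared over the same 4 genotypes. Since all 24 h arrays are from set 3 and the 9 h arrays from sets 1 and 2, time and set cannot be told apart. None of the 5 genes was called by limma (background 2.21%), with 2 of them at an unadjusted p under 0.05. UGT76E12 differed by -0.55 at 24 h (upper 95% bound -0.11, adjusted p = 0.149) and IAGLU by -0.41 (95% interval -0.80 to -0.01, adjusted p = 0.227), and without the Col-0 set 1 array at 9 h UGT76E12 was called at -0.70 (adjusted p = 0.0126). UGT84A3, UGT85A2 and AT4G27570 differed by -0.28, -0.04 and -0.24.

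**Figure D2:**
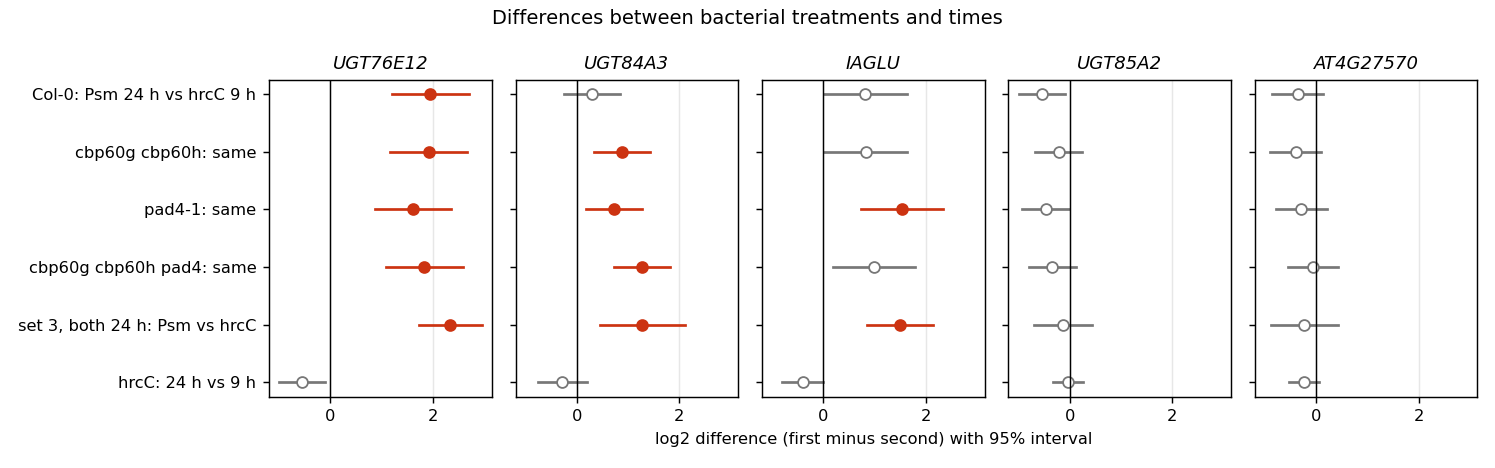
Differences of log2 signal between treatments (x axis, first minus second group) for each gene (panels), with 95% intervals from limma. The upper rows compare Psm at 24 h with hrcC at 9 h within a genotype, the next row compares the strains at 24 h in set 3, and the last compares times after hrcC. Filled red points were called. UGT76E12 is called in each comparison of Psm with hrcC, from 1.62 to 2.34, while UGT85A2 and AT4G27570 are called in none.

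Under Psm at 24 h, plants without CBP60g and CBP60h, without PAD4, or without all 3 were compared with Col-0 and with each other. UGT84A3 rose in the triple mutant against Col-0, by 1.08 (SE 0.23, adjusted p = 0.00109), a 2.12-fold change. The levels were 4.96 ± 0.23 against 3.88 ± 0.31 (SD, n = 3 each) and did not overlap. The difference was 1.17, 1.03 and 1.04 within sets 1, 2 and 3. The call remained without each of the 6 arrays and in each of 7 alternatives, which gave 1.08 to 1.30. The array medians were 4.07 to 4.38 in the triple mutant and 4.41 to 4.48 in Col-0, lower where UGT84A3 was higher.

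Both partial mutants lay between Col-0 and the triple mutant in UGT84A3 in 3 of 3 sets. The double mutant stood at 4.28 ± 0.36 (SD, n = 3), higher than Col-0 by 0.33 to 0.46 within the sets, and the difference of 0.40 was not called (95% interval -0.09 to 0.89, adjusted p = 0.375). pad4-1 stood 0.45 to 0.65 above Col-0 within the sets, with a difference of 0.54 that was not called either (95% interval 0.05 to 1.03, adjusted p = 0.223). The triple mutant exceeded the double mutant by 0.68 (SE 0.23, adjusted p = 0.0311), and the groups did not overlap. That call was lost with only these 2 groups in the fit (adjusted p = 0.102) and without the set 1 array of the double mutant (0.47), or the set 2 (0.64) or set 3 array (0.59) of the triple mutant. Against pad4-1 the triple mutant differed by 0.54 (95% interval 0.05 to 1.03, adjusted p = 0.116), by 0.52 to 0.59 within the sets, and it was called under the set block (0.54, adjusted p = 0.0449) and at 0.79 after median re-centring (adjusted p = 0.0238). The departure from additive effects was 0.15 (95% interval -0.55 to 0.84, adjusted p = 0.888). This interval is too wide to tell additive effects from others.

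The other 4 genes gave no call between genotypes under Psm. UGT76E12 was 0.47 to 0.56 higher in the double mutant than in Col-0 within the sets and the groups did not overlap, with a difference of 0.50 (95% interval -0.16 to 1.17, adjusted p = 0.418). In pad4-1 and the triple mutant UGT76E12 differed from Col-0 by -0.03 and 0.17. IAGLU differed from Col-0 by -0.34 in the double mutant, -0.01 in the triple mutant and 0.45 in pad4-1, and the double mutant differed from pad4-1 by -0.80 (95% interval -1.52 to -0.08, adjusted p = 0.295). Within sets 1, 2 and 3 that difference was -1.18, -0.47 and -0.76, lower in 3 of 3 sets, and pad4-1 was above Col-0 in 3 of 3 sets, by 0.33 to 0.54. With the set as a block neither was called. UGT85A2 was 0.36, 0.34 and 0.38 above Col-0 in the double mutant, triple mutant and pad4-1. In the triple mutant it was called after quantile normalization, at 0.68 (adjusted p = 0.00949), and after median re-centring, at 0.55 (adjusted p = 0.0373). Within sets 1, 2 and 3, as deposited, UGT85A2 differed by -0.07, 0.37 and 0.77 in the double mutant. It differed by -0.10, 0.56 and 0.55 in the triple mutant and by 0.08, 0.58 and 0.50 in pad4-1. The double and triple mutants overlapped Col-0, and pad4-1 did not. AT4G27570 was on average 0.21, 0.23 and 0.14 above Col-0 in the double mutant, triple mutant and pad4-1, with a lowest adjusted p of 0.447. Within sets 1, 2 and 3 its difference was 0.09, 0.02 and 0.52 in the double mutant. It was 0.34, -0.35 and 0.71 in the triple mutant and -0.20, -0.14 and 0.77 in pad4-1. The set 3 Col-0 array read 1.19, at percentile 0.17 of its probes.

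Against the background, 1 of the 5 genes was called in the triple mutant (34.3% of named genes), and 0 of 5 in the double mutant (6.63%) and in pad4-1 (2.76%). Also 1 of 5 was called between triple and double mutant (30.9%), 0 between triple mutant and pad4-1 (21.5%), 0 between double mutant and pad4-1 (1.1%) and 0 in the departure from additive effects (5.52%), by limma. In those comparisons with 0 calls, 1 of the 5 genes each had an unadjusted p under 0.05 in pad4-1 against Col-0, in the triple mutant against pad4-1 and in the double mutant against pad4-1. Over all named genes, 18 were called higher and 44 lower in the triple mutant against Col-0, and 32 higher and 34 lower after quantile normalization. Against the double mutant 14 and 42 became 35 and 30, and against pad4-1 11 and 28 became 16 and 20. The 3 mutants share their Col-0 arrays. The median difference from Col-0 was 0.36, 0.23 and 0.38 over the 5 genes in double mutant, triple mutant and pad4-1, and 0.01, -0.13 and -0.04 over all named genes. Each median of the 5 is the value of a single gene that was not called. That gene is UGT85A2 in the double mutant and pad4-1, and the dim AT4G27570 in the triple mutant.

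At 9 h after hrcC, UGT76E12 was higher in cbp60h than in Col-0. It rose by 1.27 (SE 0.36, adjusted p = 0.0254), with the Col-0 set 1 array at percentile 0.17 of its probes, where the size of a difference is uncertain. Means were 3.48 ± 0.89 in cbp60h (SD, n = 3) and 2.21 ± 0.70 in Col-0 (SD, n = 2), and the groups did not overlap. Within sets 1 and 2 the difference was 1.30 and 0.21. The third cbp60h array, at 4.51, is from set 3, which has no Col-0 array at 9 h. Without it the difference was 0.76 (adjusted p = 0.0964), without the Col-0 set 1 array it was 0.78 (adjusted p = 0.435), and with only these 2 groups in the fit the call was lost as well (adjusted p = 0.232). The set 3 array had a median of 4.39, against 4.17 and 4.23 for the other cbp60h arrays, and after median re-centring the call remained.

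None of the other 4 genes was called in cbp60h. UGT84A3 differed by 0.30 (95% interval -0.25 to 0.85), IAGLU by 0.11, UGT85A2 by -0.20 and AT4G27570 by 0.06. Thus 1 of the 5 genes was called, where 13.8% of the named genes were. In the other 3 mutants 0 of the 5 genes were called against Col-0 by limma and 0 had an unadjusted p under 0.05, where 0% of named genes were called in the double mutant, 6.63% in the triple mutant and 0% in pad4-1. UGT76E12 differed there by 0.54, 0.29 and 0.31, and IAGLU by -0.35, -0.17 and -0.26, with 95% intervals that reach 1 or more from 0 for both genes. There were also 0 calls and no unadjusted p under 0.05 for triple against double mutant (0.552%), triple mutant against pad4-1 (0.552%) and double mutant against pad4-1 (0%). The double mutant against cbp60h, which asks what loss of CBP60g adds, gave 0 calls and no unadjusted p under 0.05 among the 5 genes, and calls in 24.9% of all named genes (16 higher and 29 lower, or 23 and 20 after quantile normalization), with UGT76E12 at -0.73 (95% interval -1.48 to 0.02, adjusted p = 0.141) and UGT84A3 at -0.48 (95% interval -1.02 to 0.07, adjusted p = 0.187).

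**Figure D3:**
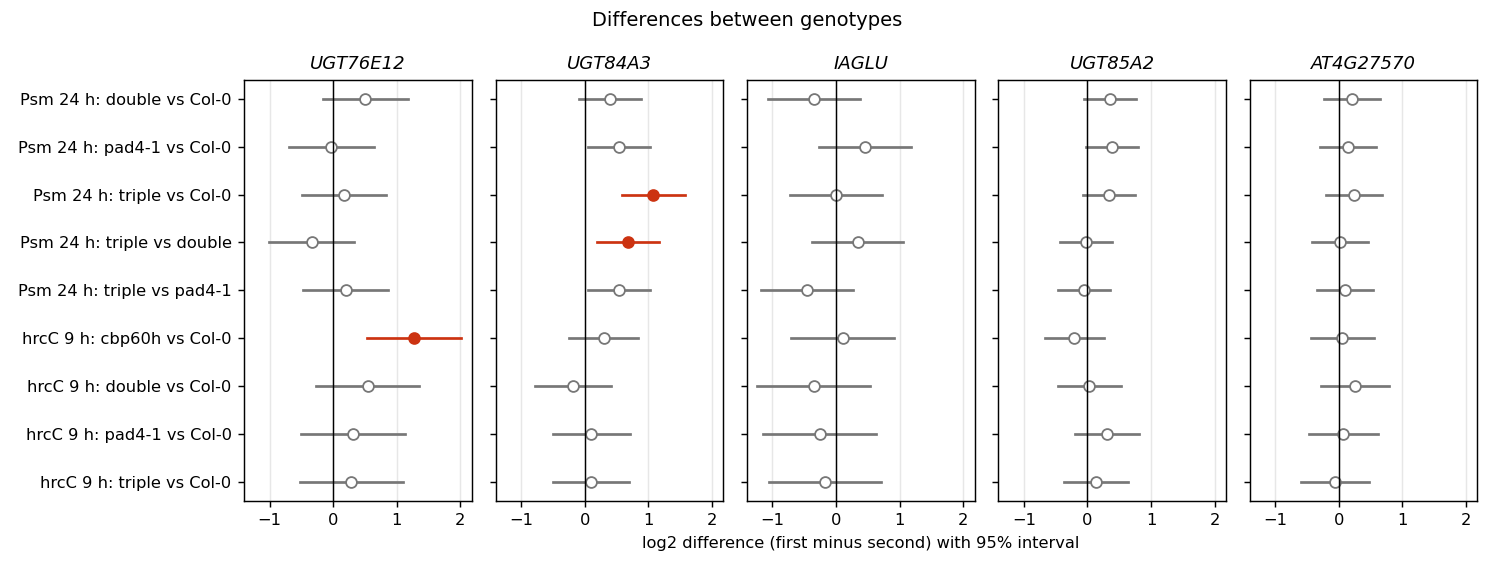
Differences of log2 signal between genotypes (x axis, first minus second group) for each gene (panels) with 95% intervals from limma, under Psm at 24 h (upper rows) and hrcC at 9 h (lower rows). Filled red points were called. The called differences are UGT84A3 in the triple mutant against Col-0 (1.08) and against the double mutant (0.68), and UGT76E12 in cbp60h (1.27).

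Col-0 and the triple mutant stood at opposite ends for UGT84A3 under the strains at 24 h. In set 3 the triple mutant stood 1.04 above Col-0 with Psm and 1.34 below Col-0 with hrcC. The double mutant stood 0.41 above and 0.79 below, and pad4-1 0.45 above and 0.70 below. At 9 h after hrcC the difference between triple mutant and Col-0 was 0.67 in set 1 and -0.46 in set 2, and over both sets it was 0.10 (95% interval -0.50 to 0.70). A test of the mutants' effects with Psm against those with hrcC at 24 h was added after these values were seen, in a fit over all 27 arrays. It has 1 hrcC array per genotype, so the spread of that arm was not measured and is assumed to be that of the other groups. Since it also restates the values that prompted it, its p-values are not evidence of a difference. For UGT84A3 the effects differed by 2.42 in the triple mutant, 1.18 in the double mutant and 1.24 in pad4-1, given as a description. The triple mutant's difference passed the threshold in that fit, as did 5.52% of named genes, and the differences of the double mutant and pad4-1 did not, where 2.21% and 1.1% of named genes passed.

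**Figure D4:**
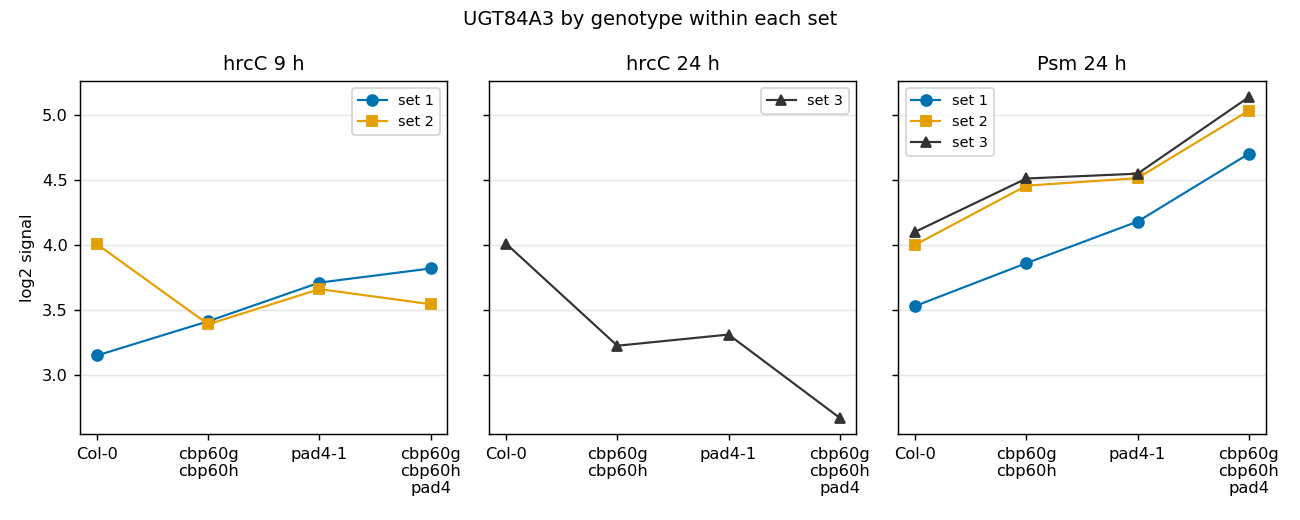
Log2 signal of UGT84A3 (y axis) by genotype (x axis) with hrcC at 9 h, hrcC at 24 h and Psm at 24 h (panels). Each point is 1 array and lines join arrays of a set. With Psm the triple mutant is the highest in each of 3 sets, between 4.70 and 5.14, and with hrcC at 24 h it is the lowest, at 2.67.

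The genes nearest in profile were found over the 13 group means, each gene centred on its own mean, by the root mean square difference. These means share arrays and array scaling, and the distances are given as a description. UGT84A3 and IAGLU, which have 6 protein-coding genes between them on the chromosome, were close, at 0.371: IAGLU was the sixth nearest to UGT84A3 and UGT84A3 the fifth nearest to IAGLU, of 180 genes. The nearest to UGT84A3 were AT1G62660 (0.333), FATB, an acyl-ACP thioesterase gene (0.335), and AT3G51370 (0.344), against a median of 0.689 over all genes. The nearest to IAGLU were AT2G28510 (0.264), AT5G48570 (0.299) and the beta-glucosidase gene BGLU45 (0.359), against a median of 0.707. The nearest to UGT76E12 were AT2G34810 (0.440), AT1G23040 (0.470) and AT2G29500 (0.472), with IAGLU the seventh (0.530) and a median of 0.982. For the genes that varied little, the nearest were AT-HF (0.205), RAP (0.208) and AT3G18050 (0.214) for UGT85A2, and AT3G47800 (0.166), the histone gene AT5G65360 (0.173) and AT5G05010 (0.184) for AT4G27570. UGT85A2 and AT4G27570 differed by 0.221.

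The array names a further pair of UDP-glucosyltransferase genes, UGT76B1, whose product glucosylates salicylic acid and isoleucic acid, and UGT74B1 (AT1G24100), which acts in glucosinolate synthesis. UGT76B1 was called in 4 of 24 comparisons and was lower in each, among them the triple mutant against Col-0 under Psm, where it fell by 2.36. UGT74B1 was called in 4 of 24, higher in 3 and lower in 1. Under Psm it rose in the triple mutant against Col-0 by 0.85 (SE 0.19, adjusted p = 0.00129), as UGT84A3 did, and with hrcC it rose in cbp60h by 0.76 (SE 0.21, adjusted p = 0.0254). Over the same 24 comparisons UGT76E12 and UGT84A3 were called in 6 each and IAGLU in 2, all of them higher, and UGT85A2 and AT4G27570 in 0. Per comparison, 0% to 42% of the named genes were called. The comparisons share arrays, so the counts per gene are given as a description.

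Few genes of the surrounding pathways are named on the array. Of 20 genes of phenylpropanoid and sinapate ester synthesis, 0 were measured. Of 17 genes of salicylic acid synthesis and its regulators, 1 was measured (GRX480), of 6 salicylic acid glucosyltransferase genes 1 (UGT76B1), of 16 genes of auxin synthesis and conjugation 1 (AT2G04400, indole-3-glycerol phosphate synthase of the tryptophan pathway) and of 7 jasmonate genes 1 (PDF1.2). Of these 4 genes, 1 rose (PDF1.2) and 2 fell (GRX480 and UGT76B1) in the triple mutant against Col-0 under Psm. There 34.3% of the named genes were called. In set 3, GRX480 was higher and PDF1.2 lower with Psm than with hrcC at 24 h, 1 call each way (background 30.4%). Calls of these genes in other comparisons are not given here.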

How the data were processed

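The authors deposited 1 table of 27 arrays, with 1 column each. Its log2 values run from 0.66 to 11.4 as deposited, and the base of the logarithm was read from the values. How the arrays were scanned, background-corrected and normalized was not given in the sources used here. Per the labels' protocols, total RNA was amplified and labelled with 1 dye. The platform annotation (2007) names a gene for 181 probes and all 181 matched the reference gene table (TAIR10.1, used for names and gene order only), 1 of them by name alone. The array number limits the precision, since the table holds no counts.

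Each array took its group from the labels. The 9 groups that have replicates, 23 arrays, were fitted together with a mean per group (limma 3.58.1, R 4.3.3, lmFit and eBayes, two-sided). The set 3 fit used 8 arrays and the time fit 12, with genotype as a block, leaving 3 and 7 residual degrees of freedom. There were 24 comparisons, and 3 added after values were seen. The 5 members, the lists and the rule for named genes (the members, other glycosyltransferases, 3 nearest profiles each, called list genes) were chosen with earlier results of these data known. The labels call each set an experiment, so set numbers pair the arrays. Deviations from group means of same-set arrays correlated at 0.37 on average with Psm (18 pairs, 0.14 to 0.62). With hrcC at 9 h they correlated at 0.16 (20 pairs, -0.12 to 0.44). Arrays of different sets averaged -0.18 with Psm and -0.11 with hrcC at 9 h. The fit of 23 arrays did not include the set, which entered as a block only among the alternatives. Alternatives were quantile normalization, median re-centring, all 576 probes, dropping the dimmest 25% of named probes, an intensity trend, the set as a block, only the groups compared, and each array left out.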

Additional observations from a re-analysis of the deposited data

Results flagged for a closer look

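For UGT84A3 at 24 h, the triple mutant was above Col-0 with Psm in 3 of 3 sets and below Col-0 with hrcC in the 1 pair of arrays there is. The effects differed by 2.42, which passed the threshold in a fit over all 27 arrays that was added after these values were seen. That fit takes the spread of the single hrcC arrays, 4.01 in Col-0 and 2.67 in the triple mutant, from the other groups, and no alternative left them out. The same contrast at 9 h after hrcC was 0.67 in set 1 and -0.46 in set 2. The difference is given as a description and was not tested on replicated hrcC arrays at 24 h.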

How the results depend on the processing

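The number of the 5 genes called, whichever genes these were, was unchanged, or within 1.5 times, in all alternatives except the following. After quantile normalization it was 2 for the triple mutant against Col-0 under Psm and 2 for Psm against hrcC at 9 h in Col-0, and after median re-centring also 2 and 2, with 1 for the triple mutant against pad4-1 under Psm. With the set as a replicate block it was 1 for that last comparison and 2 for Psm against hrcC in Col-0, where UGT85A2 fell by 0.63 (adjusted p = 0.0196). The block changed 4 of 125 gene results, each given in the report, and no other call. With only the groups compared in the fit, 0 were called for cbp60h against Col-0 and for the triple against the double mutant, and 1 for Psm against hrcC in the double mutant. With 1 array left out, the number ran from 0 to 1 for cbp60h against Col-0, the triple against the double mutant, the triple mutant's effect between treatments and hrcC at 24 h against 9 h, and from 1 to 3 for Psm against hrcC in the double mutant. Their causes were not tested. At 9 h after hrcC all genotypes but cbp60h have 2 arrays, so leaving out 1 of them leaves a single array in the group. No called value changed sign. A similar number can still hold different genes. For Psm against hrcC at 9 h, either rescaling (quantile or median) ended the call of UGT84A3 in the double mutant and pad4-1. In its place UGT85A2 was called lower in both genotypes, and AT4G27570 lower in the double mutant. Which genes were called in these comparisons thus depended on the scaling. The dim-probe alternative left out AT4G27570 throughout, UGT85A2 in the fit of 23 arrays, UGT76E12 in the set 3 and time fits, and IAGLU in the time fit, so it gives no value for them there. Groups of 1 to 3 arrays and an unstated background limit what can be seen in dim probes.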
